A study of Mus musculus with 2 samples.

Results

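The replacement histone variants are histones whose genes carry introns or poly(A) signals, or both, and are read outside S phase as well as within it. The 10 genes *H2afx*, *H2afz*, *H2afv*, *H2afy*, *H2afy2*, *H2afj*, *H3f3a*, *H3f3b*, *H1f0* and *Cenpa* were chosen by name from the 37310 genes of GENCODE release M1, which annotates the mouse genome build mm9. Their RNA was measured in 2 libraries of non-polyadenylated (NPA) RNA, the RNA left after poly(A) RNA had been removed, with the strand of each fragment kept. The authors describe such fractions as enriched but not exclusive, so polyadenylated mRNA may remain. The ESC library came from male mouse R1 embryonic stem cells at passage 18, grown on mitomycin-treated fibroblast feeders with LIF. The NPC library came from neuronal progenitor cells made from R1 cells, which spent 4 days as embryoid bodies without LIF and were harvested on day 7 in medium with ITS and fibronectin. With 1 library per cell type there is no replicate check, no test between the cell types was possible, and each ratio compares these libraries. The 95% intervals given here cover counting error only.

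DNA in the nucleus is wrapped around octamers of the core histones H2A, H2B, H3 and H4, and linker histone H1 binds the DNA between them. The bulk of these proteins is made in S phase from the replication-dependent histone genes, whose mRNAs have no introns and end after a conserved stem-loop in place of a poly(A) tail. Replacement variants are put into chromatin by their own chaperones, and their mRNAs are commonly polyadenylated. *H2afx* is the exception among them, since its mRNA can end after a stem-loop like that of a replication-dependent gene or further on with a poly(A) tail.

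The stem-loop is shown because it sets *H2afx* apart from the other 9 genes in how its mRNA can end. The histone stem-loop motif was searched on the strand of each gene, from the stop codon where one is annotated to 300 bases past the annotated end. *H1f0* has no annotated stop codon. A match was found in 1 of the 10 replacement genes and in 60 of 67 replication-dependent genes. The 16 bases of the match are in capitals, with 5 bases of mm9 on each side, and each named replication-dependent gene is the one of its class with the most ESC reads of unique sequence.
*H2afx* (chr9:44143323-44143338, plus strand): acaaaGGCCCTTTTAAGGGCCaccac
*Hist3h2a* (chr11:58768674-58768689, plus strand): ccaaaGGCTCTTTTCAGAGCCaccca
*Hist1h4c* (chr13:23789958-23789973, minus strand): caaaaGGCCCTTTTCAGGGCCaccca
*Hist1h1a* (chr13:23856261-23856276, plus strand): ccaacGGCTCTTTTCAGAGCCaccaa
The *H2afx* match starts 46 bases after the stop codon, at base 526 of its single exon of 1357 bases. The cut that frees the 3′ end of such an mRNA was taken as 5 bases after the stem-loop, at base 546. A missing match says only that these letters were not found in the window searched.

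The coding sequences decide which reads can be traced to a gene, and so the 48 nt with the most reads in the coding sequence of 3 genes are shown beside the matching stretch of a sister gene. Capitals mark the bases at which the members of a pair differ.
*H3f3a* (chr1:182740296-182740343, minus strand): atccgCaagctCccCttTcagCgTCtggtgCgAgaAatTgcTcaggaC
*H3f3b* (chr11:115884987-115885034, minus strand): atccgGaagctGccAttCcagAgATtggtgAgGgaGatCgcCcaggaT
*H2afz* (chr3:137529017-137529064, plus strand): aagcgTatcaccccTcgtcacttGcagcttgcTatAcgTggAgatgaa
*H2afv* (chr11:6329139-6329186, minus strand): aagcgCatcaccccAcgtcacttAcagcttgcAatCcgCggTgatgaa
*H2afx* (chr9:44143057-44143104, plus strand): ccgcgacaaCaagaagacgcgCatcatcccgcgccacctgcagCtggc
*Hist3h2a* (chr11:58768452-58768499, plus strand): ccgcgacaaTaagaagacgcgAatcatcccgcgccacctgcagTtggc
*H3f3a* and *H3f3b*, which encode the same protein H3.3, differed at 13 of these 48 bases and at 95 of the 411 bases of their coding sequences. *H2afz* and *H2afv*, the genes of the H2A.Z proteins, differed at 7 of 48 bases. *H2afx* differed from the replication-dependent *Hist3h2a* at 3 of 48 bases. Although the sisters are told apart, these 48 nt occur at other places in mm9, 6 in all for *H3f3a*, 2 for *H2afz* and 16 for *H2afx*.

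The deposited lists hold 4271306 read placements for ESCs and 4399729 for NPCs, and counts scaled to these totals are given as RPM, of which 1 read is worth 0.234 in ESCs and 0.227 in NPCs. A sequence found exactly once in mm9 was carried by 78.2% of ESC reads and 83.2% of NPC reads. Pluripotency markers summed to 2254 RPM in ESCs and 627 RPM in NPCs. Of these, 10 of 10 were lower in NPCs, against 37.1% of all genes with at least 10 reads in both libraries together. Of the neural progenitor markers, 9 of which were in the annotation, 6 reached 10 reads in the 2 libraries together. By value these 6 were higher in NPCs, as were 62.9% of all genes with that many reads. The interval of *Ncam1*, at a ratio of 1.01 (0.760 to 1.34), included 1, and those of the others lay above 1. The 9 genes summed to 151 RPM in ESCs and 257 RPM in NPCs, of which *Vim* alone made 110 and 160 RPM. *Sox3*, *Fabp7* and *Hes5* had 5, 2 and 2 reads in NPCs, and *Sox1* was not matched. All 8 extraembryonic endoderm markers were higher in NPCs, from a sum of 326 RPM to 7746 RPM, or 23.8-fold (22.5 to 25.1). In the NPC sum *Col4a1* stood at 4717 RPM and *Lama1* at 2352 RPM. With each start counted once the ratio of the sums was 6.68 (6.19 to 7.23). Fibroblast markers summed to 38.6 and 49.8 RPM, with *Lum* at 0 in both libraries. Within that sum *Thy1* went from 79 reads in ESCs to 12 in NPCs, and *Col1a2* from 51 to 165. The 4 genes taken to follow poly(A) mRNA left in the fraction summed to 8416 RPM in ESCs and 7502 in NPCs. Their ratios of NPC to ESC were 0.459 for *Gapdh*, 0.596 for *Eef1a1*, 0.760 for *Tubb5* and 1.89 for *Actb*. How many reads on the replacement genes come from such leftover or broken mRNA was not tested. Of 12 genes of dividing cells, 9 were lower in NPCs, against 37.1% of all genes. Their median log2 ratio was -0.12, beside 0.34 for all genes. Their sum went from 3898 to 2432 RPM, in which *Top2a* stood at 1901 and 616 RPM. The part that such differences in cell state or cell composition play in the results below was not tested.

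Summed over the replacement genes the libraries were close, while the single genes parted. Together they held 3668 reads in ESCs and 3556 in NPCs, or 859 and 808 RPM, a ratio of NPC to ESC of 0.941 (0.898 to 0.986). The interval included 1 with reads found once, at 0.967 (0.912 to 1.02), and the ratio was 0.743 when scaled by the median of ratios. Over coding sequence only it was 0.538. That coding sum leaves out *H1f0*, which has no annotated coding sequence. It includes 788 ESC and 143 NPC reads of *H2afx*, part of which cannot be told from replication-dependent H2A. Of the single genes, 4 were lower in NPCs with an interval below 1, 4 were higher with an interval above 1, and the intervals of *H2afj* and *H3f3a* included 1. *H2afx*, *H2afv*, *H2afy* and *Cenpa* were the lower genes, and *H2afz*, *H2afy2*, *H3f3b* and *H1f0* the higher. The share of all genes whose interval excludes 1 is not given here. Whether these interval counts are unusual can therefore not be told. By value alone 5 of 10 were lower. Over all 14859 genes with at least 10 reads in the libraries together, 37.1% were lower in NPCs. More than 2-fold lower was 1 of the 10 genes, *H2afy*, against 12.8% of all genes, and more than 2-fold higher were 2, *H1f0* and *H2afy2*, against 24.6%, each with 1 read added in each library. The shares by value and by more than 2-fold do not set the replacement genes apart from the background. The median log2 ratio of the 10 genes was -0.32, within a range from -1.07 to 2.03, and that of all genes was 0.34. Relative to that median of all genes, *H3f3a* stood at -0.25 and *H3f3b* at 0.24 on the log2 scale. Scaling by the median of ratios over genes lowers each log2 ratio by about that median, and among the 10 genes the sign then turned for *H3f3a* alone, at -0.25 against 0.09.

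**Figure D1:**
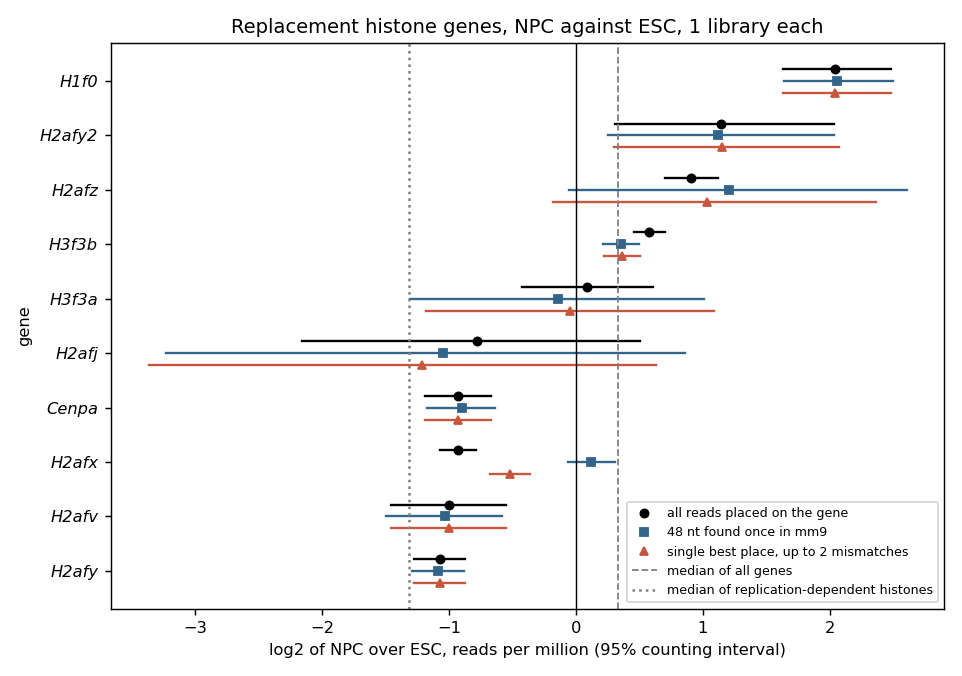
Log2 ratio of NPC to ESC RPM (x axis) for each replacement histone gene (y axis), with 95% counting intervals as lines, for all reads on the gene, reads whose 48 nt occur once in mm9 and reads with a single best place. The intervals of *H1f0* lie at the right, those of *H2afj* are wide and reach furthest left, and the 3 symbols part for *H2afx*, from a ratio of 0.526 with all reads to 1.09 with reads found once.

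The replication-dependent histones differed from this. The 67 genes held 114000 reads in ESCs and 48277 in NPCs, or 2.67% and 1.10% of the libraries, with a ratio of 0.411 (0.407 to 0.416). Of the 66 with at least 10 reads, 64 were lower in NPCs, against 37.1% of all genes. More than 2-fold lower were 40, against 12.8% of all genes. The median log2 ratio was -1.31, beside 0.34 for all genes. With only the reads found once in mm9 the ratio of the sums was 0.573 (0.563 to 0.583), 46 of 58 genes were lower and 26 were more than 2-fold lower. The shares of all genes with reads found once are not given here. For each read on a replacement gene there were 31.1 reads on replication-dependent genes in ESCs and 13.6 in NPCs, or 14.5 and 8.56 with reads found once and 7.4 and 5.22 with each start counted once. By starts the ratio of the replication-dependent sums was 0.682 (0.658 to 0.706). The ratio of replication-dependent H2A genes, 0.768 (0.749 to 0.788), was the nearest to that of the replacement genes, and that of H2B genes was 0.262 (0.257 to 0.268). With reads found once these were 0.887 (0.836 to 0.941) and 0.457 (0.440 to 0.474). Among the named genes, the reads found once went from 856 to 542 for *Hist3h2a*, from 1585 to 680 for *Hist1h2bb*, from 1426 to 315 for *Hist1h3d*, from 1976 to 1883 for *Hist1h4c* and from 5686 to 2919 for *Hist1h1a*.

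Per kb of exon, the replacement genes spanned a wide range. *H2afx* was at 209 RPM per kb of exon (RPKM) in ESCs and 110 in NPCs, the highest level of the 10 genes in ESCs. *H3f3b* followed at 72.2 and 108 RPKM. *H2afz* was at 38.2 and 71.8, *Cenpa* at 32.5 and 17.1, *H1f0* at 25.9 and 107, *H2afy* at 21.4 and 10.2, and *H2afv* at 17.7 and 8.88 RPKM. *H3f3a* stood at 4.21 and 4.48, far below the other H3.3 gene, while *H2afj* and *H2afy2* were at 1.92 each in ESCs and at 1.12 and 4.24 in NPCs. These levels count only reads placed on the gene, and most reads with *H3f3a*, *H2afz* or *H2afx* mRNA sequence were placed elsewhere. With such reads added, a count made after seeing the data, *H3f3a* had 622 reads in ESCs and 750 in NPCs. *H3f3b* then had 1341 and 2308, and *H2afz* 686 and 1375. By reads placed on the gene, *H2afx*, *H3f3b* and *H1f0* lay between 107 and 110 RPKM in NPCs. Their order cannot be read from counts of this size. The 10 genes were not ranked with reads placed elsewhere, which could change the order, as for *H2afz*. Exon lengths were those of all annotated transcripts merged, which lowers the level of genes with long rarely used exons.

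**Figure D2:**
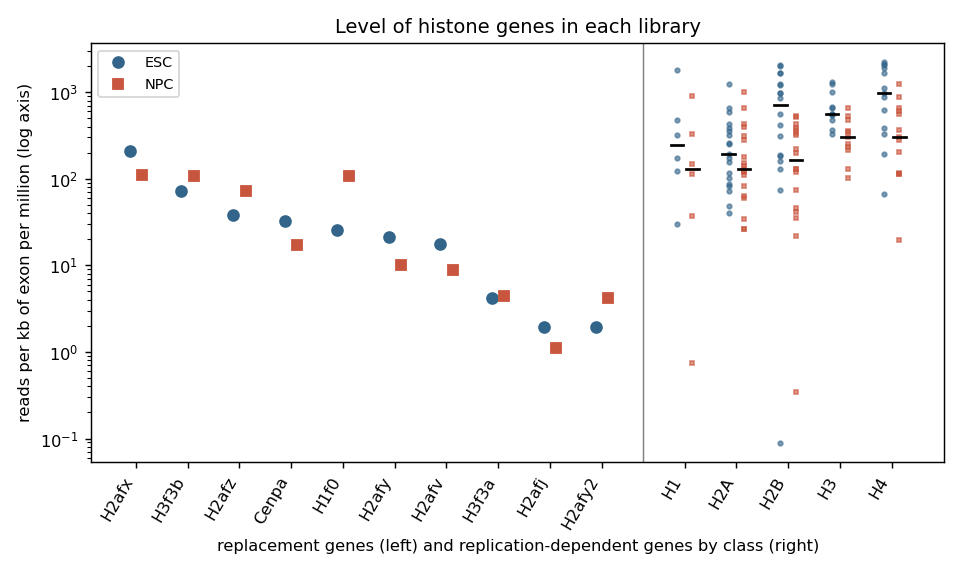
Level in RPKM (y axis, log scale) of the 10 replacement genes, ordered by their ESC level, and of single replication-dependent genes by class, with black bars at the class medians. Only reads placed on the gene are counted. *H2afx* at 209 RPKM in ESCs is the highest replacement gene, and *H1f0* shows the widest gap between ESC (circles) and NPC (squares).

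*H2afx* encodes H2A.X, whose tail is phosphorylated in chromatin beside DNA breaks. It had 1211 reads in ESCs and 656 in NPCs, a ratio of 0.526 (0.477 to 0.579). Its reads did not move together along the exon (chr9:44142798-44144154, plus strand). Before the cut 794 reads started in ESCs and 145 in NPCs, a ratio of 0.177 (0.147 to 0.212). After it 403 started in ESCs and 506 in NPCs, a ratio of 1.22 (1.07 to 1.39). The share of reads that started before the cut was thus 66.3% (63.6 to 69.0) in ESCs and 22.3% (19.1 to 25.7) in NPCs. With reads of a single best place these shares were 48% (44.4 to 51.6) and 10.1% (7.76 to 12.9).

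Reads before the cut came mainly from 2 places. In the first 100 bases 330 reads started in ESCs and 49 in NPCs, a ratio of 0.144 (0.105 to 0.195), all with a single best place in mm9. From base 251 to 300, inside the coding sequence, 400 started in ESCs and 83 in NPCs, a ratio of 0.201 (0.157 to 0.256). None of these had a single best place, since their sequences recur at up to 18 places, so that reads of *H2afx* and of replication-dependent H2A genes cannot be told apart here. The rest of the part before the cut had 64 and 13 reads. Each start counted once gave 88 starts in ESCs and 45 in NPCs before the cut, a ratio of 0.496 (0.339 to 0.719), and 103 and 74 after it, a ratio of 0.697 (0.510 to 0.949). After the cut, base 955 alone held 94 of 403 reads in ESCs and 278 of 506 in NPCs. Without that start the reads after the cut numbered 309 and 228, a ratio of 0.716 (0.601 to 0.853), so the higher count in NPCs rests on it. The ratio before the cut lay below that after it in each of these counts, though the intervals overlap when each start is counted once. These stretches and the removal of base 955 were chosen after the read starts had been seen.

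**Figure D3:**
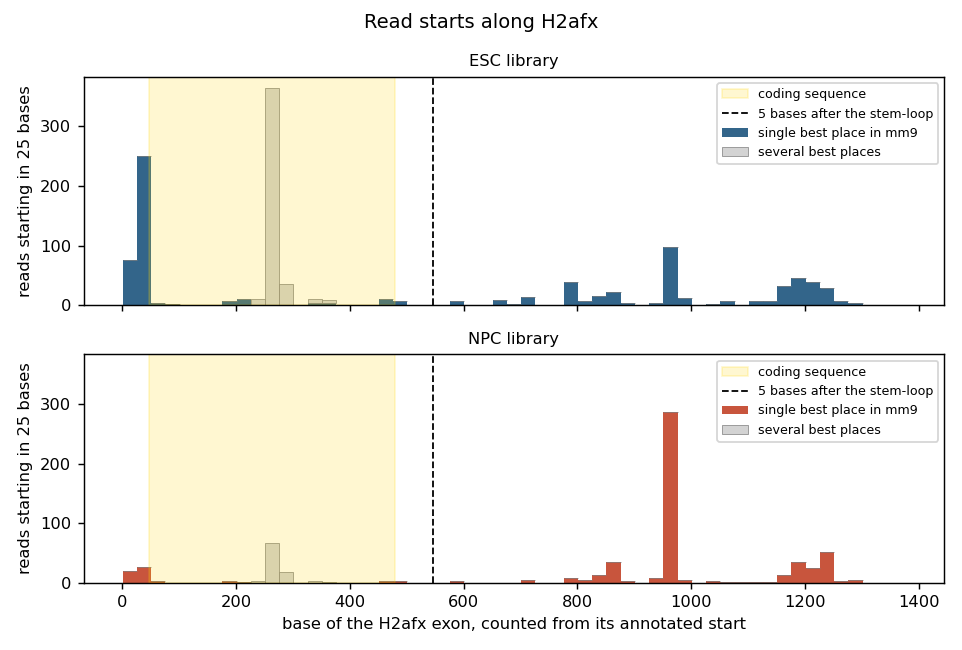
Number of reads (y axis) that start in each 25 bases of the *H2afx* exon (x axis, bases from the annotated start) in ESCs (top) and NPCs (bottom), with the coding sequence shaded and a dashed line 5 bases after the stem-loop. The peaks in the first 100 bases and inside the coding sequence are tall in ESCs, and the peak that holds base 955 is tall in NPCs.

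Within 200 bases of the cut the reads were few. In ESCs 32 reads started upstream and 31 downstream, an upstream share of 50.8% (37.9 to 63.6), and in NPCs 8 and 8, or 50.0% (24.7 to 75.3). A difference between the libraries was not detectable in these windows at this depth. With 400 bases on each side, which takes in the coding place whose reads cannot be traced, the shares were 79.7% (76.2 to 82.9) and 55.5% (47.8 to 63.0). In the windows of 200 bases at the 60 replication-dependent genes with a stem-loop, 99.8% of 57141 reads in ESCs and 99.5% of 33020 in NPCs were upstream. *Hist3h2a*, of the same histone class, had 737 reads upstream and 1 downstream in ESCs, and 463 and 0 in NPCs, the last of which allows up to 3 reads. The *H2afx* windows thus held a much larger share of reads past the stem-loop than replication-dependent genes in both libraries.

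Most reads over the start codon of *H2afx* differed from mm9 at the same base. The difference, T47C with bases counted from the annotated start of the exon, lies 1 base before the start codon and was carried by 305 of 325 reads in ESCs, or 93.8% (90.7 to 96.2), and by 44 of 46 in NPCs. The mm9 sequence around it is shown with that base in capitals.
*H2afx* (chr9:44142829-44142858, plus strand): ttctacctcgtacacTatgtccggacgcgg
Keeping only the sequences found once in mm9 drops these reads, since they do not match exactly, and also the coding reads that recur. It left 451 reads of *H2afx* in ESCs and 506 in NPCs, a ratio of 1.09 (0.957 to 1.24). Without the 352 and 66 reads that match nowhere exactly the ratio was 0.667 (0.599 to 0.741), and without the 408 and 84 found more than once it was 0.692 (0.620 to 0.771), so that neither loss alone turned its direction. Both of these counts were added after seeing the data. With a single best place within 2 mismatches, 789 and 568 reads gave 0.699 (0.626 to 0.779).

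The H2A.Z genes *H2afz* and *H2afv* moved in opposite directions. H2A.Z is found in nucleosomes at promoters and enhancers. *H2afz* (chr3:137527451-137529886, plus strand) was read 290 times in ESCs and 561 times in NPCs, a ratio of 1.88 (1.63 to 2.17). The ratio was alike over its coding sequence, with 128 and 252 reads (1.91, 1.54 to 2.38), and over the rest of its exons, with 162 and 309 (1.85, 1.53 to 2.25). Only 8 reads in ESCs and 19 in NPCs were found once in mm9, since a processed pseudogene carries most of its mRNA sequence, and their ratio of 2.31 had an interval that includes 1 (0.964 to 6.09). *H2afv* (chr11:6327229-6344446, minus strand) had 124 and 64 reads, a ratio of 0.501 (0.365 to 0.683), and all had a single best place. Its decrease lay in the coding sequence, with 89 reads against 32 (0.349, 0.225 to 0.528), while the rest of the exons had 35 and 32 (0.888, 0.532 to 1.48). With each start counted once, *H2afz* had 82 and 121 starts and *H2afv* 53 and 41. The log2 ratios by starts were 0.51 and -0.41, against 0.91 and -0.99 with all reads. The coding interval of *H2afv* ends at 0.528, just below the lower end of the other at 0.532.

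The macroH2A genes, whose proteins carry a large non-histone domain and are enriched on the inactive X chromosome, also parted. The R1 cells used here are male. *H2afy* (chr13:56174980-56237722, minus strand) went from 623 reads in ESCs to 305 in NPCs, a ratio of 0.475 (0.413 to 0.546), the lowest of the 10 genes. Its reads spread over 196 starts in ESCs and 140 in NPCs. *H2afy2* (chr10:61201391-61246895, minus strand) had 18 and 41 reads, a ratio of 2.21 (1.24 to 4.09). In ESCs *H2afy* thus had 21.4 RPKM against 1.92 for *H2afy2*, and in NPCs 10.2 against 4.24. The transcripts H2afy-001 and H2afy-002 differ in 1 exon each. The exon of H2afy-001, of 100 bases at chr13:56191119-56191218, had 41 reads in ESCs and 6 in NPCs. The exon of H2afy-002, of 91 bases at chr13:56189613-56189703, had 1 and 0 reads. The 41 reads of the former began at 10 starts.

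*H2afj* encodes an H2A variant close in sequence to the replication-dependent H2As. It had the fewest reads, 15 in ESCs and 9 in NPCs, and its ratio of 0.582 had an interval that includes 1 (0.225 to 1.42). A difference was not detectable at this depth. Of its reads, 8 and 4 were found once in mm9.

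H3.3, the H3 variant placed at active genes and, by other chaperones, at telomeres and repeats, is made from *H3f3a* and *H3f3b*. *H3f3b* (chr11:115883226-115889276, minus strand) went from 918 reads in ESCs to 1412 in NPCs, a ratio of 1.49 (1.37 to 1.62). Reads found once gave 715 and 944, a ratio of 1.28 (1.16 to 1.41). On the log2 scale these are 0.58 and 0.36, beside the median of all genes of 0.34. Most of its reads lay outside the coding sequence, 675 of 918 in ESCs and 1104 of 1412 in NPCs, and their ratio of 1.59 (1.44 to 1.75) was above that of the coding reads, 1.23 (1.04 to 1.46), with intervals that narrowly overlap. *H3f3a* (chr1:182730963-182744074, minus strand) had 63 and 69 reads, a ratio of 1.06 (0.745 to 1.52), of which 15 and 14 were found once. Here the placement of reads sets the level, as described below.

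*H1f0* encodes the linker histone H1.0, which builds up in cells that leave the cycle. It was 4.13-fold higher in NPCs (3.10 to 5.58), at 251 reads against 59 in ESCs, the largest ratio of the 10 genes. Nearly all its reads were found once, 58 and 249, and their ratio was 4.17 (3.12 to 5.65). With each start counted once there were 38 starts in ESCs and 91 in NPCs, so repeated starts make up part of the ratio. GENCODE M1 annotates it as a pseudogene of 534 exon bases (chr15:78859152-78859689, plus strand) with no coding sequence, and RNA past that end was not in the count.

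*Cenpa* encodes CENP-A, the H3 variant that marks centromeres. It had 347 reads in ESCs and 188 in NPCs, a ratio of 0.526 (0.438 to 0.630), and all had a single best place in mm9 (chr5:30969150-30977200, plus strand). As for *H2afv*, the decrease was larger over the coding sequence, with 197 and 73 reads (0.360, 0.271 to 0.473), than over the rest of the exons, with 150 and 115 (0.744, 0.579 to 0.955). These intervals do not overlap.

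Coding and other exon reads were therefore compared for all 9 genes with an annotated coding sequence. In 7 of them the ratio of NPC to ESC was lower over the coding sequence than over the rest, and in *H2afz* and *H2afj* it was not. The intervals of the coding sequence and the rest were apart for *H2afx*, *H2afv* and *Cenpa*, though barely for *H2afv*. On the log2 scale the coding ratio minus that of the rest was -2.73 for *H2afx*, -1.32 for *H2afv* and -1.04 for *Cenpa*. Over 5085 other protein-coding genes with at least 50 reads in each part, the coding ratio was the lower in 59.5%, with a median difference of -0.13, and at the tenth percentile the difference was -0.78.

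**Figure D4:**
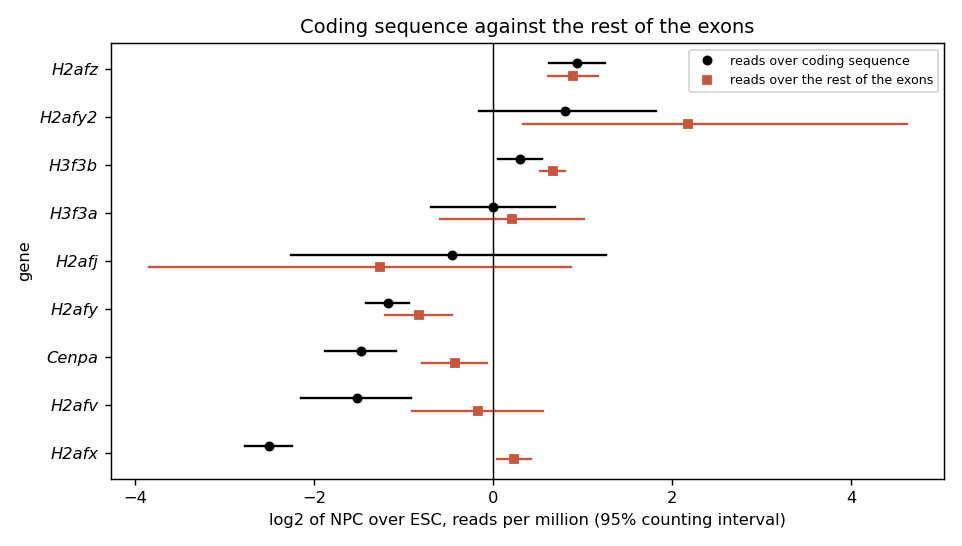
Log2 ratio of NPC to ESC RPM (x axis) over the coding sequence (circles) and over the rest of the exons (squares) of the 9 genes with a coding sequence, with 95% counting intervals. The circles lie left of the squares and apart from them for *H2afx*, *Cenpa* and *H2afv*, and the symbols of *H2afz* coincide.

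Reads along the transcript were placed by their 5′ ends. In ESCs 67.7% (64.9 to 70.3) of the *H2afx* reads fell before the midpoint of the exon length, and in NPCs 22.7% (19.6 to 26.2). For *H3f3b* the shares were 43.3% (40.0 to 46.5) and 30.1% (27.8 to 32.6), and for *H2afz* 30.1% (24.9 to 35.8) and 19.6% (16.4 to 23.1). *H2afy* had 34.5% and 33.0%, with intervals that overlap. With reads found once the *H2afx* shares were 18.0% (14.6 to 21.9) and 2.97% (1.67 to 4.85). With each start counted once the intervals also overlapped for *H2afx*, *H3f3b* and *H2afz*, at 47.6% (40.4 to 55.0) and 39.5% (30.7 to 48.9), at 45.5% and 41.0%, and at 27.2% and 25.6%, in that order. Over 6336 other protein-coding genes with introns and at least 50 reads in each library, the median share was 51.0% in ESCs and 48.6% in NPCs, and 59.9% of these genes had the lower share in NPCs.

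Intron reads were few for most replacement genes. *H3f3b* had 308 and 474 reads per kb of exon, and 4 reads in ESCs and 1 in NPCs in its 3075 bases of intron. *H2afz* had 1 and 2 intron reads. *H2afy* had 185 intron reads in ESCs and 82 in NPCs, so that per kb its exons held 27.7 and 30.6 times as many reads as its introns. *H3f3a* had 46 and 48 intron reads at 38 and 40 starts, and per kb its exons held 3.76 and 3.94 times as many reads as its introns. That ratio counts only the exon reads placed on the gene, and with those of its mRNA sequence placed elsewhere, a count added after seeing the data, it was 37.1 and 42.8. Lengths are those of the annotation, without removal of repeats, in which no reads were kept.

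Where reads with replacement histone sequence were placed was examined over the whole libraries. Bowtie had been run without requiring a unique place, so a read with several equal places was listed at 1 of them. For *H2afv*, *H2afy*, *H1f0* and *Cenpa*, 100% of the reads that carry 48 nt of the gene's spliced mRNA were placed on the gene in both libraries. For *H3f3a*, 617 reads in ESCs carried such sequence and 9.40% (7.22 to 12) were placed on the gene, and in NPCs 746 reads and 8.71% (6.79 to 11). The others lay at 51 places, of which 15 were annotated as pseudogenes. Counting them as *H3f3a* changed the log2 ratio from 0.09 to 0.23. The H3.3 gene with the fewer reads is thus also the one with most of its sequence placed elsewhere, and its level on the gene is a lower limit if those reads came from it.

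For *H2afz*, 41.2% (37.4 to 45) of 673 reads in ESCs and 39.7% (37.0 to 42.3) of 1349 in NPCs were placed on the gene. The most read place off the replacement genes was the pseudogene *Gm8203* (chr6:116123652-116124512, plus strand), with 308 ESC reads and 623 NPC reads of *H2afz* sequence. Among all *H2afz* reads 57 in ESCs and 127 in NPCs span a splice junction of the mRNA, a sequence that the gene itself does not hold unspliced. For *H3f3b* 68.1% of 1325 reads and 60.7% of 2282 reads were on the gene. The next most read place was an unannotated stretch at chr1:180229529-180230395 on the plus strand, with 260 and 492 reads of *H3f3b* sequence. The third was the replication-dependent gene *Hist1h2ao* (chr13:21902236-21902754, plus strand), with 391 and 94 reads of *H2afx* sequence. Whether reads at a pseudogene came from it or from the parent gene cannot be told apart where the sequences are identical.

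For *H2afx*, 4335 reads in ESCs and 1407 in NPCs carried sequence of its mRNA, and 19.8% (18.6 to 21.0) and 41.9% (39.3 to 44.5) were placed on the gene. Of the others, 3231 reads in ESCs and 749 in NPCs lay at 18 places on replication-dependent histone genes. For *H2afj* 13 of 23 and 6 of 14 reads were placed on the gene.

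**Figure D5:**
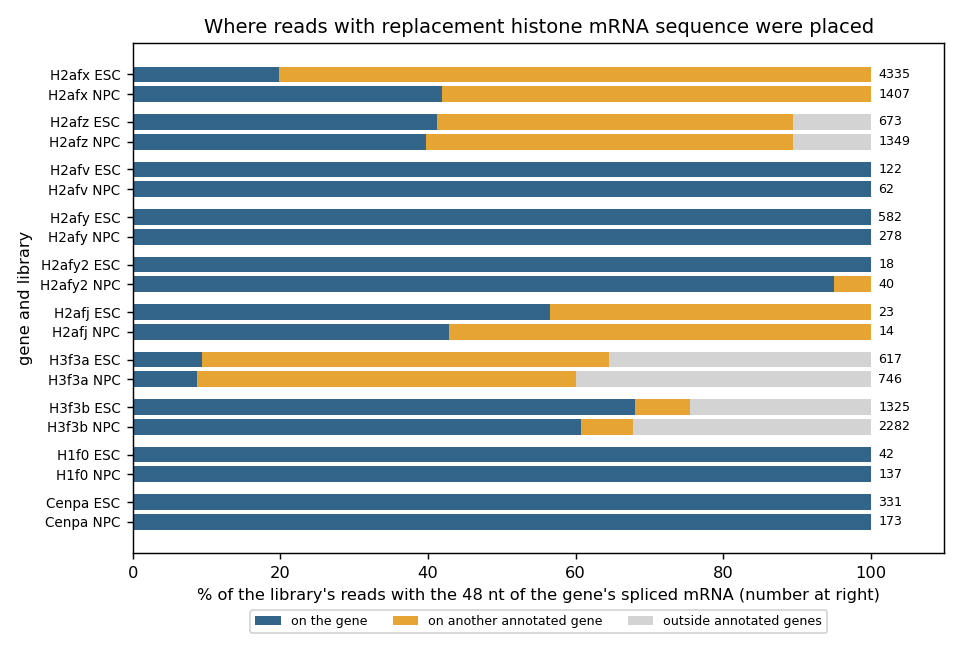
Share of reads (x axis, %) that carry 48 nt of the spliced mRNA of each gene, by whether they were placed on the gene, on another annotated gene or outside annotated genes, for each gene and library (y axis), with the number of reads at the right. *H3f3a* has the smallest share on the gene, 9.40% in ESCs, and *H2afv*, *H2afy*, *H1f0* and *Cenpa* have 100%.

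The factors that escort histone variants and place them in chromatin were taken as a list, of which 35 genes were in the annotation, each with at least 10 reads. In NPCs 25 were higher and 10 lower, against 62.9% of all genes higher. More than 2-fold higher were 7, against 24.6% of all genes, and more than 2-fold lower was 1, against 12.8%. The median log2 ratio of 0.33, or -0.0090 when scaled by the median of ratios, lay at the median of all genes. *Npm1*, a nucleolar histone chaperone, had 1785 reads in ESCs and 1606 in NPCs, *Rbbp4* 1454 and 1667, *Rbbp7* 708 and 2329, and *Ssrp1*, a subunit of the chaperone FACT, 619 and 1113. The highest log2 ratios were those of *Nap1l1*, an H2A-H2B chaperone, at 2.17, and *Ubn1*, a subunit of the HIRA complex that places H3.3, at 1.93. The lowest was that of *Ruvbl2*, an ATPase of the complexes that exchange H2A.Z, at -1.31. For the CENP-A chaperone *Hjurp* the reads were 495 and 611, a ratio of 1.20 (1.06 to 1.35), beside 0.526 for *Cenpa*. For *Hira* itself they were 197 and 529, a ratio of 2.61 (2.21 to 3.09), beside 1.49 for *H3f3b* and 1.06 for *H3f3a*. *Hjurp* and *Hira* were named after their values had been seen.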

How the data were processed

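NPA RNA of 1 ESC and 1 NPC library was sequenced on SOLiD with the strand kept, from 2 µg of RNA with 15 PCR cycles. The authors removed poly(A) and ribosomal RNA, placed the reads on mm9 with Bowtie, with no demand for a unique place, dropped those on mitochondrial, ribosomal and repeat sequence, and deposited 1 line per read with its chromosome, start, end, strand and 48 nt of sequence. The files hold positions, and all counts here were made from them.

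Reads on the gene strand that overlap a merged GENCODE M1 exon by at least 1 base were counted, and in sums over genes no read entered more than once. Every 48 nt sequence was searched on the plus and minus strands of mm9, and for reads near histone genes the places with the fewest mismatches, up to 2, were also found. Replication-dependent genes are the protein-coding *Hist* genes of M1. Counts were scaled by library totals, and log2 ratios over lists add 1 read in each library. Intervals are exact Poisson, Clopper-Pearson or conditional binomial, and no test was made with 1 library per group. Reads cannot be told from PCR copies, since no molecular identifiers were used, and a count of 0 allows up to 3 reads.

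The genes and lists were chosen with earlier results of these data known. Named are the 10 genes, the replication-dependent gene of each class with the most ESC reads found once, the 4 most read chaperones and the 2 highest and 2 lowest of those with at least 50 reads, and the 3 most read places off the genes. One chaperone that this rule names is not reported here. Lengths include repeats, since the genome at hand has no repeat mask. The counting was checked on simulated data. Scripts ran in Python 3.11.15 with pysam 0.24.0, numba 0.67.0, SciPy 1.17.1, matplotlib 3.10.9 and NumPy 2.4.6.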

Additional observations from a re-analysis of the deposited data

Results flagged for a closer look

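RNA past the annotated end of *H1f0* lies outside the counts of the report. In the 1500 bases after it on the plus strand (chr15:78859690-78861189), where no other gene is annotated on that strand, 96 reads were found in ESCs and 471 in NPCs, above the 3 reads that a count of 0 allows. The ratio of 4.76 (3.82 to 6.00) was close to that of the annotated part, 4.13 (3.10 to 5.58). All 96 and 463 of the 471 were found once in mm9, at 56 and 135 starts, and the minus strand held 0 reads in both libraries.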

How the results depend on the processing

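The ratio of the summed reads, 0.941, was 0.889 when scaled without the 10 most read genes, 0.743 with the median of ratios, 0.538 over coding sequence only, 0.771 with reads placed elsewhere, and, as alternatives added after seeing the data, 0.862 with a single best place and 0.836 without each gene's most read start. It stayed below 1 in all 9 alternatives, but with reads found once, at 0.967 (0.912 to 1.02), and with each start counted once, at 0.966 (0.884 to 1.06), the interval included 1. The reads placed elsewhere include 3478 in ESCs and 818 in NPCs with *H2afx* sequence. Of these, 3231 and 749 lay on replication-dependent histone genes. In the sum over coding sequence, *H2afx* alone had 788 reads in ESCs and 143 in NPCs. The replication-dependent median of -1.31 was -0.87 with reads found once, -0.58 with each start counted once and -1.65 with the median of ratios. The median of the chaperone list, 0.33, became -0.0090 with the median of ratios, which lowers each log2 ratio of NPC to ESC by 0.34, the median of all genes being 0.34. The upstream share at the *H2afx* stem-loop in ESCs, 50.8%, was 70.8% with 100 bases on each side, 79.7% with 400, 64.0% with each start counted once and 66.3% over the whole gene. In NPCs the 50.0% was 22.3% over the whole gene and 10.1% there with a single best place. Of 90 alternatives for single genes, 66 stayed within the counting interval, 23 did not, and 1 turned from a value whose interval excluded no change, *H2afx* with reads found once, at 0.12 against -0.93 on the log2 scale. That filter drops both the reads that do not match mm9 exactly and those found more than once, and neither loss alone turns the ratio. *H3f3a*, whose interval includes no change, took a negative sign in 4 alternatives, among those within the interval, from -0.0053 to -0.25. With each start counted once the log2 ratio of *H1f0* was 1.20 against 2.03. *H1f0* has no coding sequence in the annotation and so no value for that alternative. No paired analysis was possible because each group has 1 library.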
